A study of Homo sapiens with 8 samples.

Results

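The enzymes of de novo purine synthesis were examined in A549 cells exposed to EEDS, the ethanol extract of D. sophia seeds, or to helveticoside, a cardiac glycoside. The members were taken by symbol: PPAT, GART, PFAS, PAICS, ADSL, ATIC, IMPDH1, IMPDH2, GMPS and ADSS2. All 10 were matched among the 19056 genes of the array through the transcript accession of their probes. Of these 10 genes, 8 were lower and 2 (PPAT and GART) were higher than the vehicle control at the top dose of both agents, where the direction of ADSS2 with EEDS turned under another scaling. The share of all genes with the same direction at both top doses is not given beside these counts.

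Cells build purine nucleotides on a ribose phosphate (PRPP) that is assembled stepwise into inosine monophosphate (IMP), the branch point of the pathway. From IMP, one branch leads to guanosine monophosphate (GMP) and the other to adenosine monophosphate (AMP). Proliferating tumour cells are known to draw on this pathway for DNA and RNA synthesis, and the salvage pathway rebuilds the same nucleotides from free bases and nucleosides.

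A549 is an established line from a human lung carcinoma. One set of 4 one-colour arrays held a vehicle control and EEDS at 1.25, 5 and 20 μg/mL, and a second set of 4 held its own vehicle control and helveticoside at 3.75, 15 and 60 nM. Each array carried RNA pooled from 3 cultures and each condition had 1 array, so a single dose has no replicate error and no p-value. The study's methods give 24 h of exposure for the arrays, whereas the treatment text of the labels, which describes a viability assay, gives 48 h. The agent cannot be told apart from the set of arrays, because each agent was measured on its own set.

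The scanner software called between 63.35% and 64.93% of probes well above background on the EEDS arrays. On the helveticoside arrays the share was lower, between 54.48% and 59.53%. No probe spot was saturated. All 10 purine synthesis genes were well above background on all 8 arrays. The labelled cell type was checked with 8 genes of lung epithelial and A549 cells, all of which were well above background on all 8 arrays. Of genes that mark other cell types, CD3E and PECAM1 were well above background on 0 arrays and PTPRC, CDH5 and DES on all 8. On the log2 scale, PTPRC lay between 5.95 and 7.27, CDH5 between 6.74 and 7.51 and DES between 8.95 and 10.12, and the part of other cells in the results was not tested. In such bulk RNA, fewer cells of a type and less RNA per cell cannot be told apart. Levels are given as log2 of the quantile-normalized signal and cannot be compared between genes. A difference is the log2 ratio of a treated array to the vehicle control of its own set, where -1 stands for a 2-fold lower signal.

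**Figure D1:**
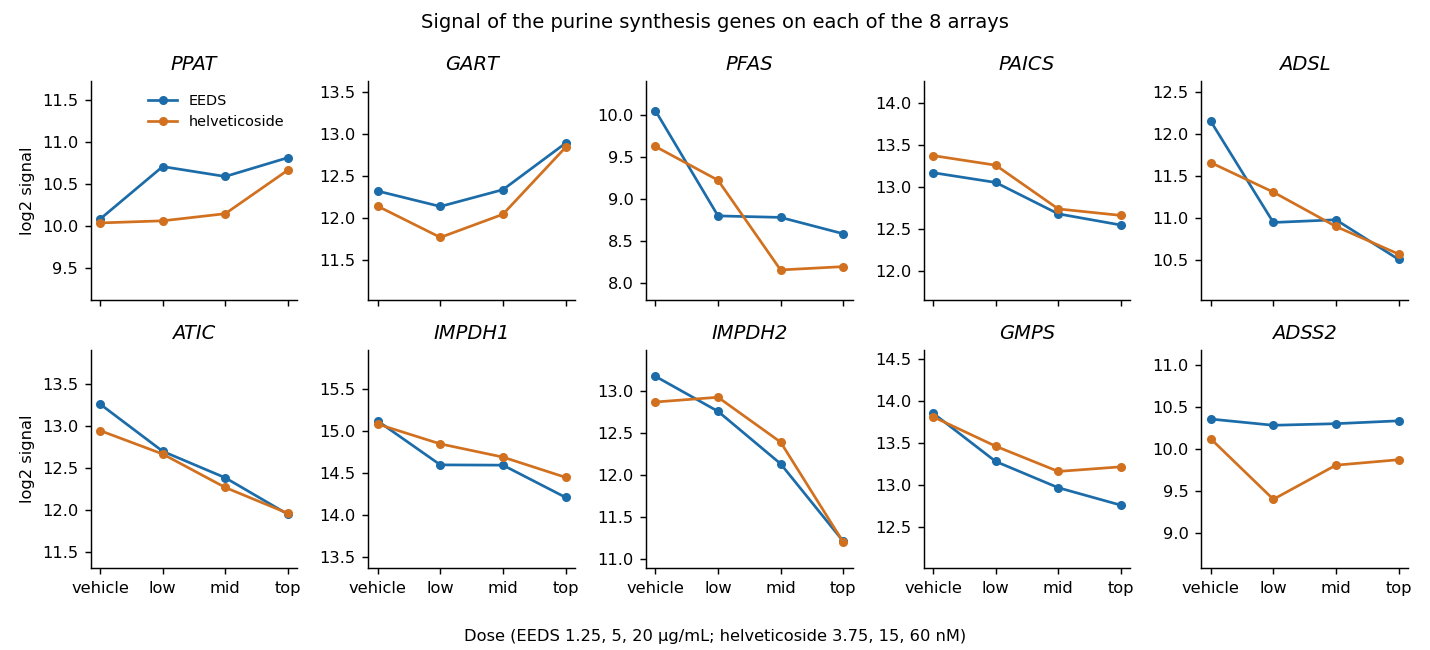
Log2 signal (y axis) of each gene on the 8 arrays, against the dose of EEDS (blue) or helveticoside (orange) on the x axis. Each point is 1 array of pooled RNA without replicates, and each panel spans the same width on the log2 scale around its own centre. ATIC fell from 13.26 to 11.95 over the EEDS arrays, whereas ADSS2 stayed between 10.28 and 10.36 there.

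PPAT encodes the amidotransferase of the first committed step. Its log2 level was 10.09 on the EEDS control array and 10.71, 10.59 and 10.82 at 1.25, 5 and 20 μg/mL. On the helveticoside arrays it was 10.04 without the agent and 10.06, 10.15 and 10.67 at 3.75, 15 and 60 nM. PPAT was the single member that lay above its control on all 6 treated arrays, but its ratio of 0.03 at 3.75 nM helveticoside lay between -0.07 and -0.02 under 4 of the 8 alternatives. With EEDS the higher level was already present at the lowest dose, and with helveticoside most of it appeared at the top dose. At the top dose the signal was 1.66-fold higher with EEDS and 1.55-fold higher with helveticoside.

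GART encodes a trifunctional enzyme of later steps. With EEDS its log2 level was 12.32 on the control array and 12.13, 12.33 and 12.89 at the rising doses. With helveticoside the level was 12.14 on the control array and 11.77, 12.04 and 12.84 at the rising doses. GART therefore lay below the control at the lowest dose of both agents and above it at the top dose. The top-dose signal was 1.48-fold higher with EEDS and 1.62-fold higher with helveticoside.

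PPAT and GART each had a second, dimmer probe that was well above background on every array. Both PPAT probes are annotated to the same transcript, and the dimmer one was higher than its own control on all 6 treated arrays. Its log2 ratios were 0.86 at the top dose of EEDS and 0.77 at that of helveticoside. Its control level was 8.98 in the EEDS set and 9.63 in the helveticoside set. The levels of 9.54 and 9.45 at 1.25 and 5 μg/mL EEDS lay below the helveticoside control, so their direction rested on the control used. The dimmer GART probe is annotated to another, shorter transcript of the gene. Its log2 level was 9.06, 9.31, 9.96 and 10.37 from the control to the top dose of EEDS. It was 8.83, 8.88, 9.39 and 9.99 over the helveticoside arrays. This probe was higher at every dose than at the one before with both agents and reached a 2.47-fold higher signal with EEDS and a 2.23-fold higher signal with helveticoside. The brighter probe of GART went below the control in between, so the GART probes disagreed in size at every dose, in direction at the lowest dose of both agents and also at the middle dose of helveticoside. Which part of the transcripts each probe binds is not known from the files.

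**Figure D2:**
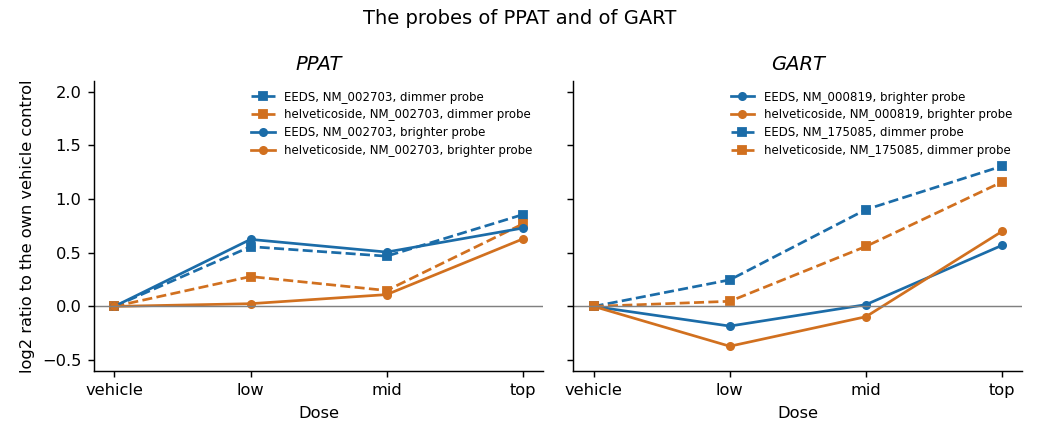
Log2 ratio to the own vehicle control (y axis) by dose (x axis) for the brighter (circles) and dimmer (squares) probes of PPAT and GART with EEDS (blue) and helveticoside (orange), 1 array per point. The PPAT probes ran close together, whereas the dimmer GART probe reached 1.31 and 1.16 at the top doses against 0.57 and 0.70 for the brighter one.

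PFAS encodes the glutamine-dependent amidotransferase that acts between steps of GART. The log2 level of PFAS was 10.05 on the EEDS control array and 8.80, 8.78 and 8.58 at the rising doses. With helveticoside it was 9.62 on the control array and 9.22, 8.15 and 8.19 at the rising doses. The low level was thus reached at the lowest dose of EEDS and at the middle dose of helveticoside, and the levels at the higher doses lay close to it. The top-dose signal was 2.76-fold lower with EEDS and 2.69-fold lower with helveticoside.

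PAICS encodes a bifunctional enzyme that carboxylates the imidazole ring and adds aspartate. For PAICS the log2 level was 13.17, 13.06, 12.68 and 12.55 over the EEDS arrays from the control to the top dose. Over the helveticoside arrays it was 13.38, 13.26, 12.74 and 12.67. PAICS was lower at each dose than at the one before with both agents, and ended 1.54-fold lower with EEDS and 1.64-fold lower with helveticoside.

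PPAT and PAICS lie head to head on chromosome 4, so their opposite directions were measured on neighbouring genes. In the RefSeq annotation of GRCh38.p14 PAICS has 3 start sites, and the one nearest to PPAT is used here. Between it and the start of PPAT, on the opposite strand, lie 136 bases. The bases between the starts are shown because both promoters share them, on the plus strand at chr4:56435616-56435751, from the start of PPAT towards that of PAICS.
PPAT-PAICS interval: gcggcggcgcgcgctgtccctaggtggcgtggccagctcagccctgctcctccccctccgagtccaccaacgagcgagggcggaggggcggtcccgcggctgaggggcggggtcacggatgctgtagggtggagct
The E-box CACGTG, a motif that MYC and related factors are known to bind and that reads the same on both strands, was searched in the windows from 250 bases before to 50 bases after each start. It occurred once in the window of PPAT and once in that of the PAICS start used here, at the same bases. The windows of the other PAICS starts held none. The motif is shown in capitals in the PAICS stretch on the plus strand at chr4:56435780-56435801.
PAICS E-box: ctgtatttgctgCACGTGgaaa
A match is a description of the letters and was not tested as a binding site.

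ADSL encodes the lyase that acts both before IMP and in the AMP branch. For ADSL the level (log2) was 12.16 on the EEDS control array and 10.95, 10.98 and 10.51 at the rising doses. With helveticoside it was 11.66 on the control array and 11.31, 10.90 and 10.58 at the rising doses. With EEDS most of the difference was present at the lowest dose, and with helveticoside it was spread over the doses. The top-dose signal was 3.12-fold lower with EEDS and 2.13-fold lower with helveticoside.

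ATIC encodes the bifunctional enzyme that adds the last formyl group and closes the ring to IMP. The ATIC level (log2) was 13.26, 12.70, 12.38 and 11.95 over the EEDS arrays from the control to the top dose. Over the helveticoside arrays it was 12.95, 12.67, 12.27 and 11.96. Each dose lay below the one before with both agents, and the top-dose signal was 2.48-fold lower with EEDS and 1.98-fold lower with helveticoside. The ATIC promoter is shown because it held 2 E-boxes, whereas the windows of GART, PFAS, IMPDH1, GMPS and ADSS2 held none. Its first E-box is in capitals within the 250 bases before the start, on the plus strand of GRCh38.p14 (RefSeq) at chr2:215311809-215312058.
ATIC promoter: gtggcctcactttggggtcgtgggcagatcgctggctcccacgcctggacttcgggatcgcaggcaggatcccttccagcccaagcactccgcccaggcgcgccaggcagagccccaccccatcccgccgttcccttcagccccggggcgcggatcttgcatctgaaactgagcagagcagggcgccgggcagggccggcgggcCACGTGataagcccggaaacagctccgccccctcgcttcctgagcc
The second lies behind the start, in the stretch at chr2:215312076-215312105 on the plus strand.
ATIC second E-box: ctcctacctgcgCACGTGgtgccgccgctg
The motif was in the windows of 3 of the 8 members that had one (PPAT, PAICS and ATIC), where PPAT and PAICS count the same bases, and in those of 8.775% of all 27305 genes with a window. Of the 3 genes, PPAT was higher and PAICS and ATIC were lower at the top dose of both agents. ADSL and IMPDH2 had no window in the table used.

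IMPDH1 and IMPDH2 encode the isozymes of IMP dehydrogenase, the rate-limiting enzyme of the GMP branch, of which IMPDH2 is known as the form that proliferating cells induce. The log2 level of IMPDH2 was 13.18 on the EEDS control array and 12.76, 12.14 and 11.22 at the rising doses. With helveticoside it was 12.87 on the control array and 12.93, 12.40 and 11.21 at the rising doses. The largest step down lay between the middle and the top dose with both agents, and the lowest dose of helveticoside lay 0.06 above its control. The top-dose signal of IMPDH2 was 3.90-fold lower with EEDS and 3.17-fold lower with helveticoside, the largest difference of the 10 genes with either agent. Of the 11494 genes that were dim on no array (called well above background on each), 4.21% had a lower ratio at the top dose of EEDS and 4.79% at that of helveticoside. The log2 level of IMPDH1 was 15.12, 14.59, 14.59 and 14.21 over the EEDS arrays from the control to the top dose. Over the helveticoside arrays it was 15.08, 14.84, 14.69 and 14.45. IMPDH1 was lower on all 6 treated arrays, and its top-dose difference was smaller than that of IMPDH2 with both agents, at 1.88-fold with EEDS and 1.55-fold with helveticoside.

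GMPS encodes GMP synthetase, which completes the GMP branch. Its log2 level was 13.85, 13.28, 12.97 and 12.76 over the EEDS arrays from the control to the top dose. Over the helveticoside arrays it was 13.81, 13.46, 13.16 and 13.21. GMPS was lower on all 6 treated arrays and ended 2.13-fold lower with EEDS and 1.51-fold lower with helveticoside. ADSS2 encodes the adenylosuccinate synthetase that opens the AMP branch. Its log2 level was 10.36, 10.28, 10.30 and 10.33 over the EEDS arrays and 10.12, 9.40, 9.81 and 9.87 over the helveticoside arrays. All 6 log2 ratios of ADSS2 were below 0, but with EEDS they lay between -0.07 and -0.02. They turned to 0.16, 0.18 and 0.21 against the helveticoside control, and to 0.04 at the top dose under scaling to the 75th percentile. With helveticoside its lowest value was at the lowest dose.

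**Figure D3:**
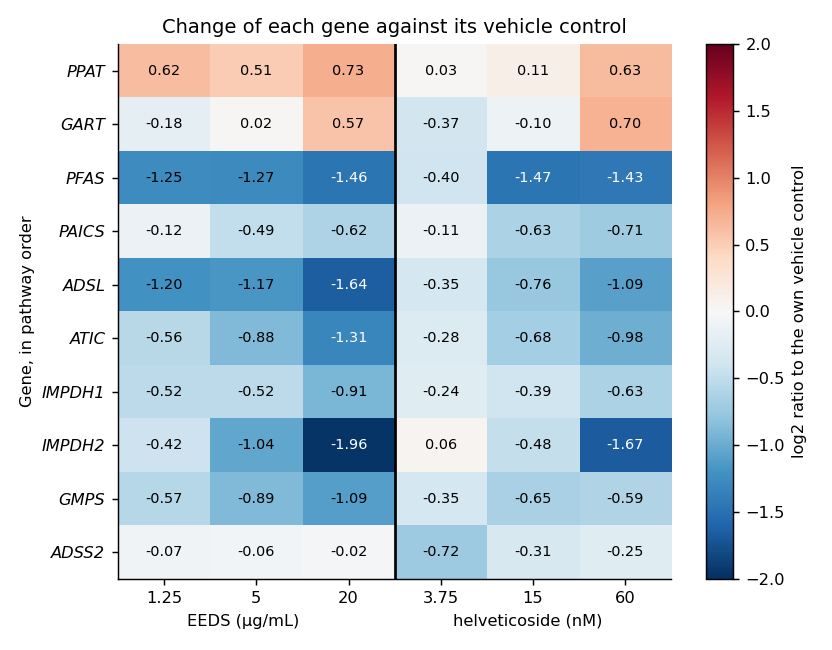
Log2 ratio of each treated array to its own vehicle control (colour and number in each cell), with genes in pathway order on the y axis and the doses of EEDS and helveticoside on the x axis, 1 array per cell. Red cells (higher) lie in the rows of PPAT and GART and, at 0.06, for IMPDH2 at 3.75 nM helveticoside, and the deepest blue cells are those of IMPDH2 at the top doses, -1.96 and -1.67.

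In all, 7 genes (PFAS, PAICS, ADSL, ATIC, IMPDH1, GMPS and ADSS2) were lower on all 6 treated arrays and 1 (PPAT) was higher on all 6. Of these, PFAS, ADSL, ATIC, IMPDH1 and GMPS were lower on all 6 under each of the 8 alternatives as well. No share of all genes is given beside these counts, and the ratios of a set share 1 control array, so the counts are a description only. The direction of PAICS at 3.75 nM helveticoside turned from -0.11 to 0.06 with scaling to the 75th percentile and to 0.09 with the EEDS control, and those of PPAT and ADSS2 turned as given above. The median log2 ratio of the 10 genes was -0.47, -0.70 and -1.001 at the rising doses of EEDS, where the median of all genes tested was 0.01, 0.01 and 0.02. With helveticoside the members' median was -0.31, -0.56 and -0.67, beside 0.01, -0.04 and -0.0037 for all genes tested. Scaling to the 75th percentile in place of quantile normalization gave members' medians of -0.45, -0.48 and -0.73 with EEDS, where all genes gave -0.20, -0.21 and -0.36. With helveticoside it gave -0.15, -0.34 and -0.36, where all genes gave 0.14, -0.12 and -0.18. At the top doses the members' median thus lay below that of all genes by 1.02 with EEDS and 0.67 with helveticoside under quantile normalization. The distance was 0.37 and 0.18 under the other scaling.

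Of the 10 genes, 2 (PFAS and ADSL) were more than 2-fold lower at 1.25 μg/mL EEDS, as were 3.71% of all genes tested. At 5 μg/mL there were 3 (PFAS, ADSL and IMPDH2) against 8.53% of all genes, and at 20 μg/mL 5 (PFAS, ADSL, ATIC, IMPDH2 and GMPS) against 14.6%. With helveticoside the counts were 0 at 3.75 nM against 4.34%, 1 (PFAS) at 15 nM against 8.11% and 3 (PFAS, ADSL and IMPDH2) at 60 nM against 12.9%. No member was more than 2-fold higher at any dose, where all genes gave 4.21%, 7.35% and 13.4% with EEDS and 3.4%, 7.13% and 10.9% with helveticoside. These are counts of single arrays, and the comparisons within a set share 1 control array.

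The vehicle controls themselves differed. The helveticoside control lay below the EEDS control for 9 of the 10 genes, by 0.49 (log2) for ADSL and by 0.43 for PFAS, where the SD of this difference over the 11494 genes was 0.48. Set against the helveticoside control, the lowest EEDS dose gave log2 ratios of -0.71 for ADSL and -0.83 for PFAS, in place of -1.20 and -1.25. With the exchanged control no member was more than 2-fold lower at 1.25 or 5 μg/mL EEDS. At the top doses, each member other than ADSS2 differed from its own control by more than the controls differed from each other.

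To ask whether the levels followed the dose, a slope per dose step was fitted for each agent over the 8 arrays with limma, with p-values adjusted by Benjamini and Hochberg over all 19046 genes tested. With EEDS the slope was below 0 with an adjusted p under 0.05 for 6 members (PAICS, ADSL, ATIC, IMPDH1, IMPDH2 and GMPS), as for 7.9% of all genes. With helveticoside it was so for 2 members (PAICS and ATIC), as for 5.83% of all genes. No member had such a slope above 0, where all genes gave 7.27% with EEDS and 5.48% with helveticoside.

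ATIC had the smallest adjusted p among the 10 genes. Its slope was -0.42 ± 0.04 (log2 per dose step, SE; limma adjusted p = 0.0132) with EEDS and -0.33 ± 0.04 (limma adjusted p = 0.0185) with helveticoside. PAICS had the smaller slopes of -0.22 ± 0.05 (limma adjusted p = 0.0487) and -0.27 ± 0.05 (limma adjusted p = 0.0395). IMPDH2 had the steepest slope of the 10 genes with either agent, -0.65 ± 0.13 with EEDS (limma adjusted p = 0.0338) and -0.55 ± 0.13 with helveticoside (limma adjusted p = 0.0561). The latter did not pass the threshold. GMPS, IMPDH1 and ADSL passed with EEDS at limma adjusted p-values of 0.0249, 0.0270 and 0.0404, and did not pass with helveticoside at 0.0951, 0.0574 and 0.0908. PFAS, which had reached its low level before the top dose, did not pass with either agent (limma adjusted p = 0.110 and 0.0822). PPAT had slopes of 0.21 and 0.20 (limma adjusted p = 0.167 and 0.206) and GART of 0.19 and 0.24 (limma adjusted p = 0.406 and 0.325), none of which passed. ADSS2 had slopes of -0.0044 and -0.03 that lay within their SE of 0.11.

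The fit had 4 residual degrees of freedom, and its spread is the scatter of single arrays around straight lines, not that of replicate cultures. Without the lowest dose, without the middle dose or with only the 4 arrays of 1 agent, limma called 0 genes of all tested, members included. At an unadjusted p under 0.05, 7 members passed with each agent over the 8 arrays, and between 4 and 8 passed in these smaller fits. The same held for 33.4% of all genes with EEDS and 29.9% with helveticoside over the 8 arrays, and for 23.9% to 28.4% in the smaller fits.

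**Figure D4:**
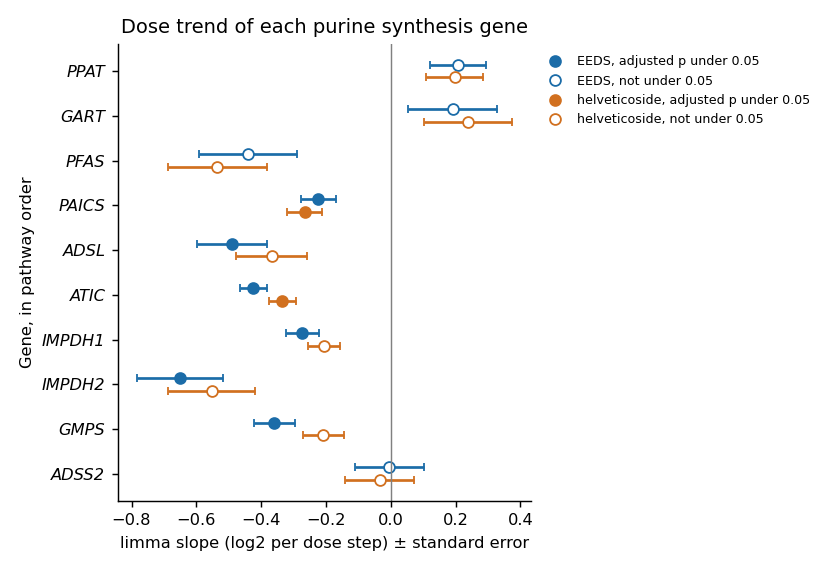
limma slope (x axis, log2 per dose step, with bars of 1 standard error) of each gene, in pathway order on the y axis, for EEDS (blue) and helveticoside (orange) over 8 arrays. Filled points have an adjusted p under 0.05, which holds for 6 genes with EEDS and 2 with helveticoside, all on the falling side.

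The slopes of the agents were compared within the same fit. Their difference was called by limma for 0% of the 19046 genes and for 0 of the 10 members, and 526 genes and 0 members had an unadjusted p under 0.05. The difference of EEDS minus helveticoside was -0.15 for GMPS (95% interval -0.37 to 0.07), -0.10 for IMPDH2 (-0.57 to 0.37) and -0.09 for ATIC (-0.24 to 0.06). The widest interval was that of PFAS, from -0.44 to 0.63. These intervals leave room for slopes of unequal size, and the dose steps of a plant extract in μg/mL and of a pure compound in nM are not matched doses. The order of the agents in the top-dose ratios depended on the control array. With the controls exchanged, ADSL gave -1.15 with EEDS and -1.58 with helveticoside, in place of -1.64 and -1.09, and IMPDH2 gave -1.66 and -1.97 in place of -1.96 and -1.67. The order turned for ATIC, PAICS, PFAS and GART as well. It was kept for IMPDH1 and GMPS, which gave the lower ratio with EEDS either way, and for PPAT and ADSS2, which gave the higher.

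The genes that supply or adjoin the pathway were taken from fixed lists and are counted by the same trend fit. Over all genes tested, the fit called 7.9% falling and 7.27% rising with EEDS, and 5.83% falling and 5.48% rising with helveticoside. The lists are short, so their counts are a description only. Each adjusted p given for a listed gene belongs to its slope over the dose steps, not to a top-dose ratio. PRPP comes from the synthetases PRPS1 and PRPS2, which gave top-dose log2 ratios of 0.53 and -0.35 with EEDS and 0.30 and -0.46 with helveticoside. Of the 4 genes of PRPP supply, 1 fell with each agent. It was PRPSAP1, a partner protein of the synthetases, with slopes of -0.48 with EEDS (limma adjusted p = 0.0152) and -0.33 with helveticoside (limma adjusted p = 0.0327). Its top-dose log2 ratios were -1.51 and -1.05. The other partner, PRPSAP2, gave 0.28 and 0.27 and did not pass. The median of the list at the top dose was -0.03 with EEDS and -0.09 with helveticoside.

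Folate carries the formyl groups that GART and ATIC use. Of 9 genes of this list, SHMT1, the cytosolic serine hydroxymethyltransferase, and MTHFD1, the cytosolic trifunctional folate enzyme, fell with both agents. Of all genes, 7.9% fell with EEDS and 5.83% with helveticoside. SHMT1 gave top-dose log2 ratios of -1.89 with EEDS and -1.50 with helveticoside (limma adjusted p = 0.0157 and 0.0227). MTHFD1, which is named because it was called and was chosen after its values were seen, gave -1.32 and -0.92 (limma adjusted p = 0.0190 and 0.0368). Among the mitochondrial enzymes of the list, MTHFD1L gave 1.08 with EEDS (limma adjusted p = 0.0682) and rose with helveticoside to 1.57 (limma adjusted p = 0.0296). MTHFD2 gave 1.39, 1.88 and 1.11 over the rising doses of EEDS and 0.21, 1.89 and 1.20 over those of helveticoside, with its highest value at the middle dose, and did not pass. SHMT2, the mitochondrial serine hydroxymethyltransferase, was likewise named after its values were seen and gave -1.32 and -0.65 at the top doses (limma adjusted p = 0.173 with EEDS and 0.587 with helveticoside). The list's median was -0.74 with EEDS and 0.52 with helveticoside over all 9 genes. Over the 7 that were well above background it was -1.17 and -0.65, so its sign with helveticoside rested on dim probes.

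Of 18 genes of purine salvage and interconversion, limma called 0 with either agent. All genes gave 7.9% falling and 7.27% rising with EEDS, and 5.83% and 5.48% with helveticoside. The median top-dose log2 ratio of the 18 genes was 0.11 with EEDS and -0.10 with helveticoside. ADSS1, the isozyme of ADSS2, gave log2 ratios of 0.01, -1.32 and -2.02 over the rising doses of EEDS and 0.34, -0.87 and -1.98 over those of helveticoside (limma adjusted p = 0.0586 and 0.0733). The top-dose ratios of ADSS2 were -0.02 and -0.25. MTAP, which recovers adenine from methylthioadenosine, lay between -0.12 and 0.32 up to the middle dose and gave -1.90 and -1.12 at the top doses (limma adjusted p = 0.164 and 0.436). ADA, the adenosine deaminase, gave -0.89 and -0.68, and PNP, the purine nucleoside phosphorylase, 0.74 and 0.73.

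Pyrimidine synthesis gave a top-dose median of -0.91 with EEDS and -0.47 with helveticoside over 5 genes. Of these, 1 fell with EEDS and 0 with helveticoside, where 7.9% and 5.83% of all genes fell. CTPS2, a CTP synthetase, gave -1.52 with EEDS (limma adjusted p = 0.0335) and -0.80 with helveticoside (limma adjusted p = 0.125), whereas its isozyme CTPS1 gave 0.63 and 0.83. CAD and UMPS, the multifunctional enzymes of the pathway, gave -1.001 and -0.91 with EEDS and -0.47 and -0.75 with helveticoside. Ribonucleotide reductase makes the DNA precursors from the nucleotides of both pathways. RRM1 and RRM2 gave -0.61 and -0.50 with EEDS and -0.53 and -0.55 with helveticoside. RRM2B, the p53-inducible subunit, gave 1.24 with EEDS (limma adjusted p = 0.0619) and rose with helveticoside to 1.57 (limma adjusted p = 0.0393), the 1 called gene of 3. Of all genes, 5.48% rose with helveticoside. Over the 3 genes the median was -0.50 and -0.53.

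MYC and ATF4 encode factors known to act on genes of purine synthesis and of one-carbon supply. MYC gave top-dose log2 ratios of 0.86 with EEDS and 0.62 with helveticoside, and ATF4 gave 1.04 and 0.49. Neither passed the trend fit (limma adjusted p between 0.0601 and 0.442). The helveticoside control array read lower than the EEDS control for MYC, at log2 levels of 12.62 and 13.57. The top dose of helveticoside, at 13.24, lay below the EEDS control, so the direction of MYC with helveticoside rested on the control used.

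**Figure D5:**
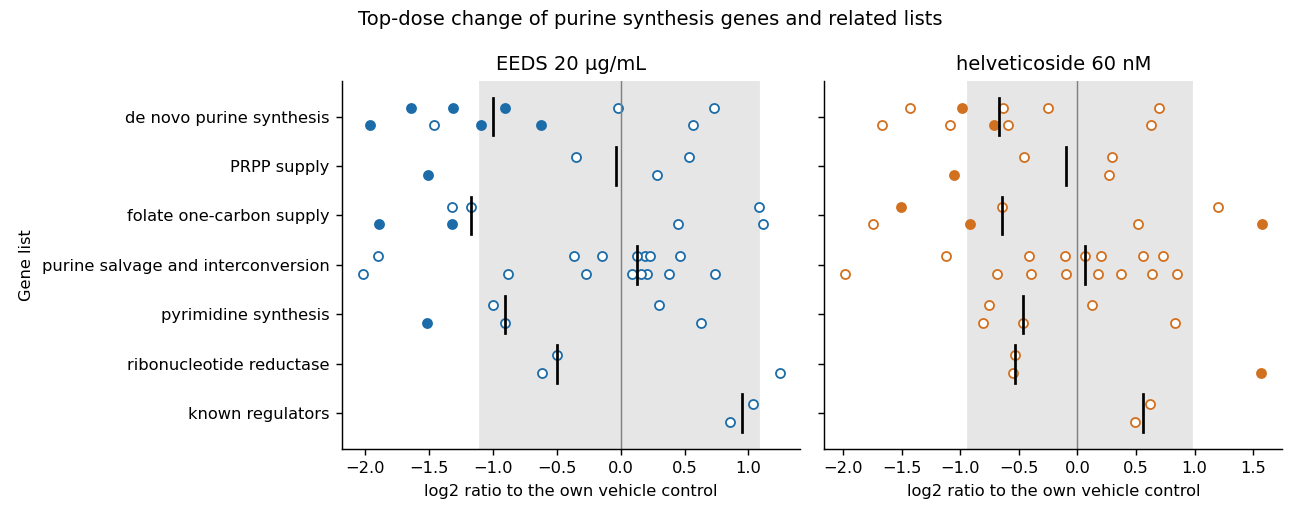
Log2 ratio of the top dose to the own vehicle control (x axis) for the genes of each list (y axis) whose probes were bright enough to be called on both controls and both top doses, with EEDS on the left and helveticoside on the right. Filled points passed the limma trend, black bars are medians over the points, and the grey band is the median ± 1 SD of the 11494 genes that were dim on no array. The bar of de novo purine synthesis stands at -1.001 with EEDS and -0.67 with helveticoside, and that of purine salvage at 0.13 and 0.06.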

How the data were processed

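For each of the 8 arrays the authors deposited the intensity of every spot from Agilent Feature Extraction (version not given in the sources used here): its median signal and local background, a background-subtracted processed signal, and calls for outliers, saturation and signal well above background. A table of processed intensities was deposited too. Its medians lay between 120.1 and 121.3 on the EEDS arrays and between 191.6 and 191.9 on the helveticoside arrays. Between 396 and 816 values were blank on each EEDS array, and 0 or 1 on each helveticoside array. Samples were grouped by the titles in the labels. After removal of control and outlier spots, spots of a probe were averaged on the processed signal, and all 8 arrays were quantile-normalized together before log2 was taken. Among 34127 probes, 24812 were matched by accession to 19056 genes. For the 4797 genes with several probes the one with the highest mean signal was used, and 19046 genes were tested. Outlier calls removed between 246 and 331 spots per array, and precision is limited by how many arrays there are.

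In R 4.3.3, limma 3.58.1 (with statmod 1.5.0) gave slopes per dose step from a model with an intercept and a slope per set of arrays and with trend and robust estimation. The rest used scipy 1.17.1, pandas 2.3.3 and numpy 2.4.6 in Python 3.11.15, and the fit was tested on simulated data. Promoter windows came from a RefSeq table of GRCh38.p14. Named were all members, up to 4 genes of each other list with the largest mean top-dose ratio in size among those well above background, MYC and ATF4, and the 5 genes nearest to the members' median ratios. The members and lists were chosen with earlier results of these data known. The alternatives changed the scaling, the background, the values used, the probe rule, the filter, the control array, the dose coding, the arrays fitted and the limma settings. The values of some genes of the lists and marker sets are not reported here.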

Additional observations from a re-analysis of the deposited data

How the results depend on the processing

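The direction at both top doses held for 9 of the 10 genes under the 8 alternative ways of computing the ratios, and ADSS2 with EEDS ran from -0.15 to 0.21 (log2). IMPDH2 ran from -2.05 to -1.66 with EEDS and from -1.97 to -1.41 with helveticoside. No called slope and no ratio of more than 2-fold reversed, whereas small ratios of PPAT, GART, PAICS, IMPDH2 and ADSS2 turned their sign at some doses. With the vehicle controls exchanged, the members more than 2-fold lower numbered 0 at 1.25 μg/mL and 0 at 5 μg/mL EEDS, and 2 at 15 nM helveticoside. Members with a called trend with helveticoside numbered 4 with normexp, where limma called 2644 of 19046 genes. With the authors' processed values 4 members were called, beside 1661 of 18203 genes. When genes dim on any array were left out 6 members were called, beside 2773 of 11494 genes. With only the arrays of 1 agent, without the lowest dose or without the middle dose the count was 0 with EEDS and 0 with helveticoside, and limma called 0 of all genes, where 4553 to 5403 had an unadjusted p under 0.05. Under the other alternatives the counts were 4 to 7 with EEDS, where limma called 2813 to 4604 of all genes. With genes dim on any array left out, 7 members and 3600 of 11494 genes were called with EEDS. With helveticoside the counts were 2 to 3, where limma called 2122 to 2690 of all genes. Over all genes, 2889 trends were called with EEDS and 2153 with helveticoside in the fit above. The authors' processed values gave 4604 with EEDS and 1661 with helveticoside, of 18203 genes. The cause of these changes was not tested, and some of the fits held fewer arrays or fewer genes. Scaling to the 75th percentile moved the all-gene median by -0.21, -0.22 and -0.38 over the doses of EEDS and by 0.13, -0.09 and -0.18 over those of helveticoside. No paired analysis was possible because the labels give no replicate numbers and each group had 1 array. A dim probe limits what can be read from 2 folate genes and 3 salvage genes that were not well above background on every array.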

Other observations

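Of 11484 other genes well above background on all 8 arrays, the 5 whose 6 log2 ratios lay nearest to the members' median ratios were SLFN5, DVL2, FLAD1, HDLBP and TSFM, at Euclidean distances between 0.152 and 0.215 over the 6 ratios. This likeness is a description over arrays that share 2 controls.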
